A study of Mus musculus with 8 samples.

Results

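miR-193a-3p, miR-193b-3p and miR-365-3p were read in embryonic mouse footpad skin, with and without a conditional knockout of Dicer. They are 3 of the 1881 mouse miRNAs on the array and are read by 6 of its 4415 probes. All 3 were lower in the knockout at both stages, by 1.44-fold to 1.60-fold on average, and were picked because they fell under every scaling of the arrays. Their change between genotypes is therefore given as a description, with no test. What the choice did not use is the change with stage. From E16.5 to E17.5 (E, embryonic day), miR-193a-3p rose 1.19-fold averaged over genotypes, whereas miR-193b-3p, which has the same seed, differed by −0.04 ± 0.0285 (SE) on the log2 scale and did not pass the test.

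The study compared wild-type C57BL6 embryos with Dicer conditional knockout (cKO) embryos on the same strain background, at E16.5 and at E17.5, with 2 single-colour Agilent miRNA arrays in each of the 4 groups. Each array received total RNA from a pool of 3 to 5 embryos' footpad skin, the site where eccrine sweat glands form, so replicates are pools and every p-value reflects how pools vary. The labels name no Cre driver and no cell in which Dicer was deleted, and the array holds no probe for Dicer mRNA. The groups lie in 4 columns of 1 slide, so slide position and group cannot be told apart. RNA came from whole footpad skin, in which fewer cells of a type and less RNA per cell cannot be told apart.

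A miRNA is cut from a longer transcript as a hairpin, which Dicer then cleaves to release a short duplex. One strand is loaded into an Argonaute protein and pairs with messenger RNAs, mainly through its seed, bases 2 to 8. The miR-193 and miR-365 genes lie in neighbouring pairs, and the pair holding miR-193b has been described in cultured cells as promoting brown fat cell formation over muscle formation. miR-193a-3p has been described as a repressor of growth-promoting genes in several tumours.

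The mature sequences are shown because the members divide into a pair with one seed and a single miRNA with another. All 3 were matched by name in RefSeq (GRCm38.p6), and capitals mark the seed.
mmu-miR-193a-3p: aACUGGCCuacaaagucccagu
mmu-miR-193b-3p: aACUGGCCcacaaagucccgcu
mmu-miR-365-3p: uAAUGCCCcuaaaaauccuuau
Each is 22 bases long. Counted from the 5′ end, miR-193b-3p differs from miR-193a-3p by 3 substitutions, U9C, A20G and G21C, all outside the seed. Among 1679 mouse mature miRNA names in the RefSeq table, 2 carry the seed ACUGGCC, these miR-193 species alone, and 1 carries the seed AAUGCCC, miR-365-3p.

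The members come from 4 hairpins at 2 loci, all on the plus strand in GRCm38.p6. Mir193a lies at chr11:79711969-79712034 and Mir365-2 at chr11:79726400-79726511, with 14365 bases between them. No other gene of the RefSeq table spans either one. Mir193b lies at chr16:13449523-13449601 and Mir365-1 at chr16:13453840-13453926, with 4238 bases between them, and the lncRNA genes Gm32817 and Gm53058 both span the pair. The hairpins are shown because they place the measured arm beside the arm that was not seen. Capitals mark both mature arms, 5p first and 3p second.
Mir193a: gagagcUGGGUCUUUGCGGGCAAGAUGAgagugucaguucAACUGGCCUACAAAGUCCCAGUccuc
Mir365-2: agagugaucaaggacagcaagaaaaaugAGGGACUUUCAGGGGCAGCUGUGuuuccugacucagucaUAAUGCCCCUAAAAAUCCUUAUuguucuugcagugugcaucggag
Mir193b: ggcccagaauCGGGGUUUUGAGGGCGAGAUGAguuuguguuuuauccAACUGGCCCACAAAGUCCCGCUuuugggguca
Mir365-1: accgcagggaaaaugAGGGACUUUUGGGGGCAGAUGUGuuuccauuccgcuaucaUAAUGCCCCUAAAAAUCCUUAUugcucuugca
The 3p arm of Mir365-1 and Mir365-2 is one sequence, so a probe for miR-365-3p reads the product of both loci together. Their 5p arms differ from each other at 3 of 23 bases.

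Each member has 2 probes that differ by 1 base in length. The probes of the miR-193 pair are shown because telling these miRNAs apart rests on them. They are DNA, 5′ to 3′, with capitals at the bases that pair with the substituted positions.
miR-193a-3p, 16-base probe: aCTgggactttgtAgg
miR-193a-3p, 17-base probe: aCTgggactttgtAggc
miR-193b-3p, 16-base probe: aGCgggactttgtGgg
miR-193b-3p, 17-base probe: aGCgggactttgtGggc
Each of these probes pairs with bases 6 or 7 to 22 of its own miRNA and has 3 mismatches to the other. How far one miRNA binds the other's probe on the array was not tested. The miR-365-3p probes are ataaggatttttaggggcatt, which pairs with bases 2 to 22, and ataaggatttttaggggcatta, which pairs with bases 1 to 22. The scanner files place the longer one on mm9 at both chr11:79539969-79539990 and chr16:13453988-13454009.

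The measured value was the background-subtracted fluorescence intensity of a probe, in arbitrary linear units. All 701 member spots without an outlier mark, over the 8 arrays, stood well above background, out of 720 in all. The coefficient of variation between spots of one probe on one array had a median of 5.78% and ranged from 2.61% to 15.9%. Arrays were set level on the 75th percentile of 474 probes that were detected everywhere, and each miRNA was represented by its brightest probe. On the resulting log2 scale 0 is that percentile. The model was fitted over 385 miRNAs, those detected in some group on both its arrays, and all 3 members were detected on all 8 arrays.

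The other arms of the hairpins were not seen at this depth. The array has 10 probes for miR-193a-5p, miR-193b-5p, miR-365-1-5p and miR-365-2-5p, and 0 of their 918 spots without an outlier mark stood well above background. The highest mean signal of any of these probes on each array belonged to miR-193a-5p, from 1.64 to 10.4 intensity units. The dimmest detected probe of an array had a signal between 13.7 and 24.3. The data therefore say nothing of how the 5p arms changed.

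Between genotypes, miR-193a-3p was lower in the cKO on every array. At E16.5 its log2 scaled intensity was −0.68 and −0.65 in wild type against −1.38 and −1.33 in cKO. At E17.5 it was −0.44 and −0.41 against −1.11 and −1.08. The genotypes did not overlap at either stage or over both together, and replicates lay within 0.05 of each other in each group. Nothing is read from the lack of overlap, here or for the other members, since this contrast chose them. Of all 385 tested miRNAs 60.5% passed between genotypes by limma, and the share without overlap is not given here. The difference, cKO minus wild type, was −0.69 at E16.5, −0.67 at E17.5 and −0.68 ± 0.0236 (SE) averaged, a 1.60-fold lower level.

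miR-193b-3p differed least of the members. At E16.5 it stood at −0.57 and −0.65 in wild type against −1.16 and −1.17 in cKO, and at E17.5 at −0.69 and −0.68 against −1.21 and −1.15. The 4 wild-type arrays lay above the 4 cKO arrays, with little between the stages. The difference was −0.55 at E16.5, −0.50 at E17.5 and −0.52 ± 0.0285 (SE) averaged, a 1.44-fold lower level.

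miR-365-3p, which both loci encode, resembled miR-193a-3p in size of change. At E16.5 it stood at −0.59 and −0.64 in wild type against −1.35 and −1.38 in cKO, and at E17.5 at −0.63 and −0.53 against −1.14 and −1.13. Again no cKO array reached the lowest wild-type array. The difference was −0.76 at E16.5, −0.55 at E17.5 and −0.65 ± 0.0304 (SE) averaged, a 1.57-fold lower level.

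**Figure D1:**
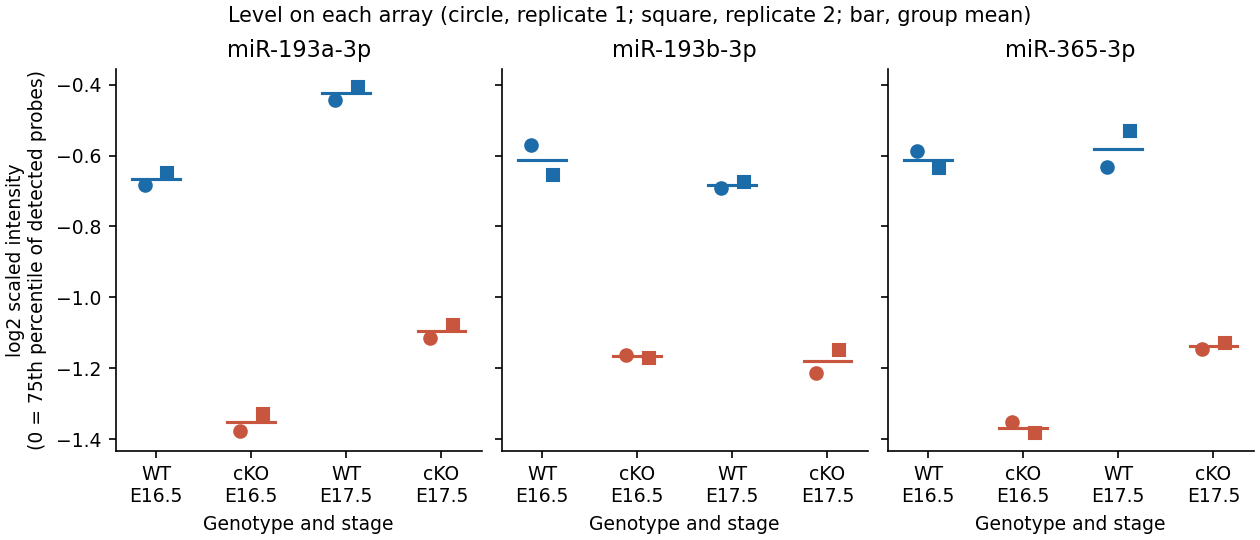
Log2 scaled intensity (vertical axis, 0 at the 75th percentile of detected probes) of the 3 miRNAs on each of the 8 arrays by genotype and stage; points are arrays and bars are means of 2. Every cKO point lies below every wild-type point, and miR-193a-3p stands higher at E17.5 than at E16.5 in both genotypes.

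In the averaged comparison 14.5% of the 385 tested miRNAs fell and 46% rose by limma at an adjusted p under 0.05, and the median change of all was 0.17. Counted from the lowest change, miR-193a-3p ranked 18, miR-365-3p 19 and miR-193b-3p 25. Nothing is read from these ranks, since the same contrast chose the members.

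The size of the difference moved with the scaling. The values of miR-193a-3p, miR-193b-3p and miR-365-3p were −0.98, −0.83 and −0.96 with no scaling, and −1.16, −1.01 and −1.14 when arrays were set level on 20 control probes. The median of all tested miRNAs moved as well, from 0.17 to −0.08 with no scaling and to −0.25 on the control probes. Relative to that median, miR-193a-3p was at −0.84 as scaled here, −0.90 unscaled and −0.92 on the control probes. miR-193b-3p was at −0.69, −0.75 and −0.76, and miR-365-3p at −0.82, −0.88 and −0.89. Over all settings and both stages, 231 of 231 values of the members were below 0, which the rule of choice fixes in part.

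**Figure D2:**
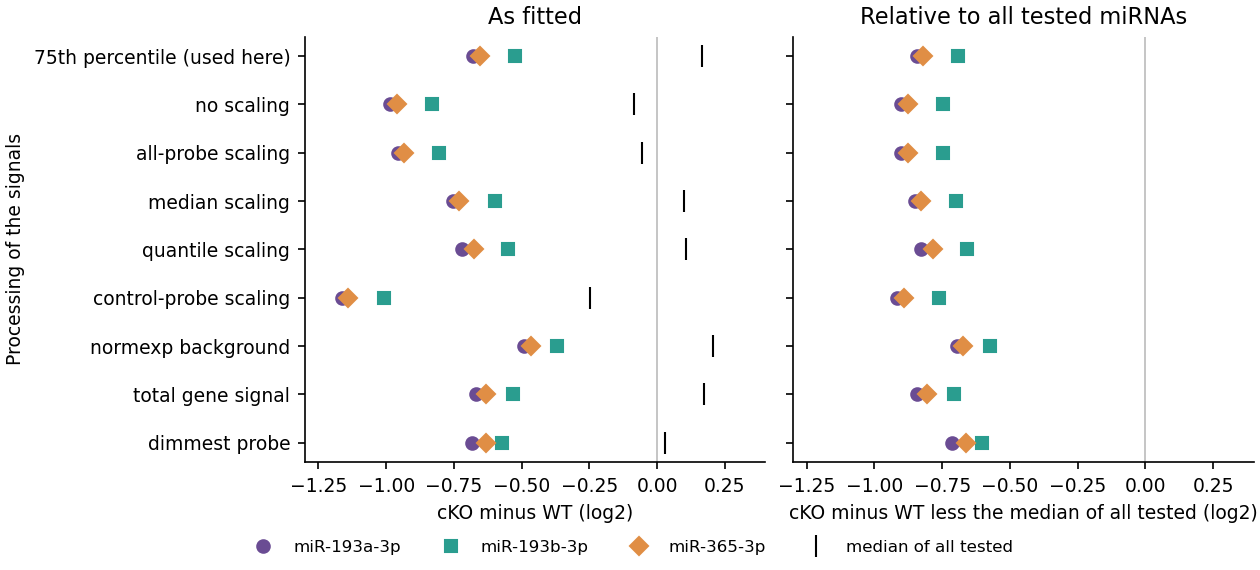
Change between genotypes (cKO minus wild type averaged over stages, log2) of the 3 miRNAs under 9 ways of processing the signals, as fitted on the left with the median of all tested miRNAs as a bar, and less that median on the right. The fitted values run from −0.37 to −1.16, while the values less the median run from −0.57 to −0.92.

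Both probes of each miRNA gave like changes between genotypes. The shorter and longer probes of miR-193a-3p both differed by −0.68, those of miR-193b-3p by −0.57 and −0.52, and those of miR-365-3p by −0.63 and −0.65. Unscaled, the 17-base probe of miR-193a-3p read 247 and 181 intensity units in wild type against 111 and 115 in cKO at E16.5, and 369 and 394 against 189 and 178 at E17.5. Genotypes were apart within each stage, but before scaling the cKO readings at E17.5 lay on either side of the lower wild-type reading at E16.5. The scale factors moved with stage: at E16.5 they were 284 and 398 for wild type against 288 on both cKO arrays, and at E17.5 they were 503 and 521 against 408 and 375.

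**Figure D3:**
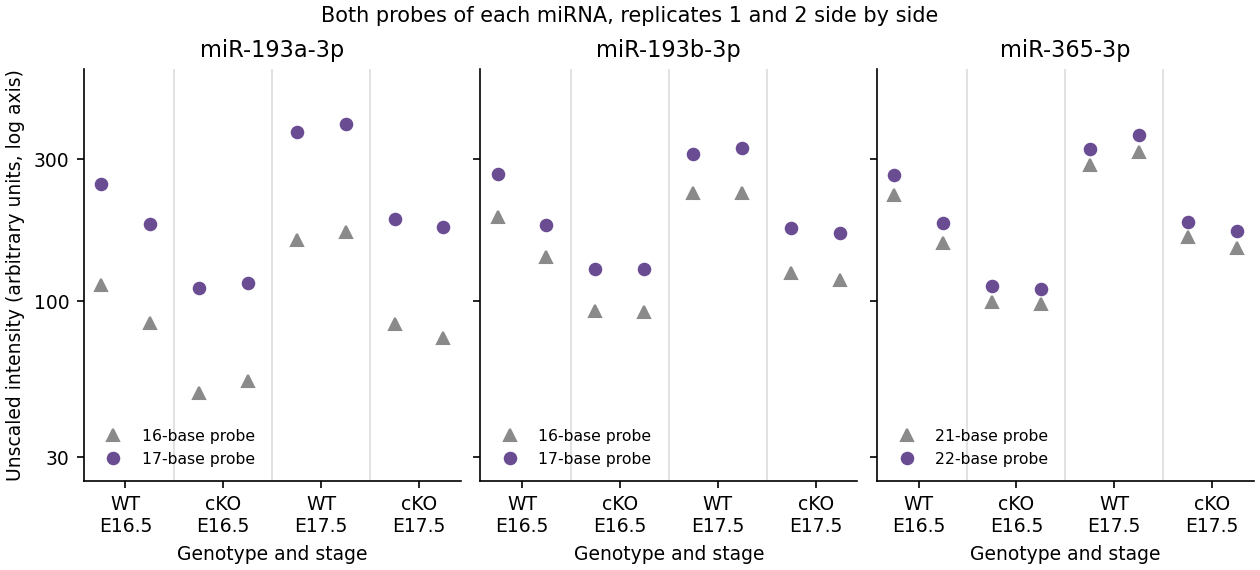
Unscaled intensity (arbitrary units, log axis) of the shorter probe (triangles) and longer probe (circles) of each miRNA on the 8 arrays, grouped by genotype and stage. Both probes of a miRNA move together between groups, and the E17.5 arrays read higher than the E16.5 arrays of the same genotype for every probe.

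miRNAs known from other cell types moved with genotype too, where 14.5% of all tested miRNAs fell and 46% rose as scaled here. Of 11 miRNAs typical of skin epithelium, such as miR-205-5p and the miR-200 family, 11 fell, with a median of −2.19. However, miR-205-3p, the other arm of the miR-205-5p hairpin, was not on this list and rose by 0.83. The summed scaled intensity of this list ran from 27.4 to 32.3 on wild-type arrays and from 2.89 to 4.36 on cKO arrays, and no cKO array detected miR-183-5p or miR-203-5p. Of 10 miRNAs typical of dermal mesenchyme 8 rose and 0 fell, with a median of 0.32. Of 5 typical of skeletal muscle 5 rose, with a median of 0.32. The rises turned with the scaling, since on the control probes 5 of the mesenchymal and 2 of the muscle miRNAs fell and 0 rose. The median of all tested miRNAs was −0.25 on the control probes, and the share of them that fell there is not given here. As scaled here, 1 of 4 rose for cartilage, 4 of 7 for blood and immune cells, 2 of 2 for endothelium and 2 of 3 for nerve and glia, with 0 falls in each. On the control probes 1, 4, 1 and 2 of these fell and 0 rose, and leaving out 1 array moved the count of rises to between 2 and 5 for blood and to between 1 and 2 for cartilage and for nerve and glia. The part of changed cell makeup in the members' difference was not tested.

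With stage, the members could be tested. In wild type 1 of the 3 rose and 0 fell from E16.5 to E17.5, where 14.8% of all tested miRNAs passed in either direction and 4.16% rose. That miRNA was miR-193a-3p, which rose by 0.24 ± 0.0334 (SE) on the log2 scale, or 1.18-fold, higher on 2 of 2 arrays (limma adjusted p = 0.0157). miR-365-3p differed by 0.03 ± 0.0429 (adjusted p = 0.702 by limma) and miR-193b-3p by −0.07 ± 0.0402 (adjusted p = 0.293 by limma). The median of all tested miRNAs was −0.04.

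In the cKO 2 of the 3 rose and 0 fell, where 35.6% of all tested miRNAs passed in either direction and 15.3% rose. miR-193a-3p rose by 0.26 ± 0.0334 (SE), 1.19-fold (limma adjusted p = 0.0125), much as in wild type. miR-365-3p rose by 0.23 ± 0.0429, 1.17-fold (limma adjusted p = 0.0217). miR-193b-3p differed by −0.01 ± 0.0402 (limma adjusted p = 0.827). Leaving out any 1 of the 4 cKO arrays ended the call for miR-365-3p, with adjusted p from 0.0609 to 0.0851.

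Averaged over genotypes, miR-193a-3p rose by 0.25 ± 0.0236 (limma adjusted p = 0.00429) and miR-365-3p by 0.13 ± 0.0304 (limma adjusted p = 0.0240), where 43.6% of all tested passed and 16.1% rose. miR-193b-3p did not pass (limma adjusted p = 0.276), and its direction turned with the scaling: it differed by −0.04 as scaled here, and rose by 0.48 with no scaling and by 0.21 on the control probes (limma adjusted p = 0.0303 and 0.00772). Under those scalings the median of all tested miRNAs in wild type shifted with stage as well, to 0.47 and 0.30. The rise of miR-193a-3p passed again without each array in turn, with adjusted p from 0.00729 to 0.0258, and under every other alternative run except 1: its 16-base probe gave 0.17 with a limma adjusted p of 0.0501. The size of the averaged rise moved with the scaling, to 0.77 with no scaling, 0.57 with all probes in the percentile, 0.50 on the control probes and 0.14 with normexp. In wild type, less the median of all tested miRNAs, it was 0.28 as scaled here, 0.38 with no scaling, 0.37 with all probes and 0.35 on the control probes. Within a single genotype the call was lost with all probes in the percentile, total gene signal or the 16-base probe in both genotypes, with quantile scaling or a fit of the compared groups alone in wild type and with no scaling or normexp in cKO. In wild type alone its call was lost without wild-type E16.5 replicate 2 (adjusted p = 0.0510), E17.5 replicate 1 (0.0584) or E17.5 replicate 2 (0.115). For miR-365-3p the averaged call was lost with all probes, normexp or total gene signal (limma adjusted p = 0.0802, 0.424 and 0.0669), and without either cKO array of either stage, wild-type E16.5 replicate 2 or wild-type E17.5 replicate 2, with adjusted p from 0.0523 to 0.0727.

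**Figure D4:**
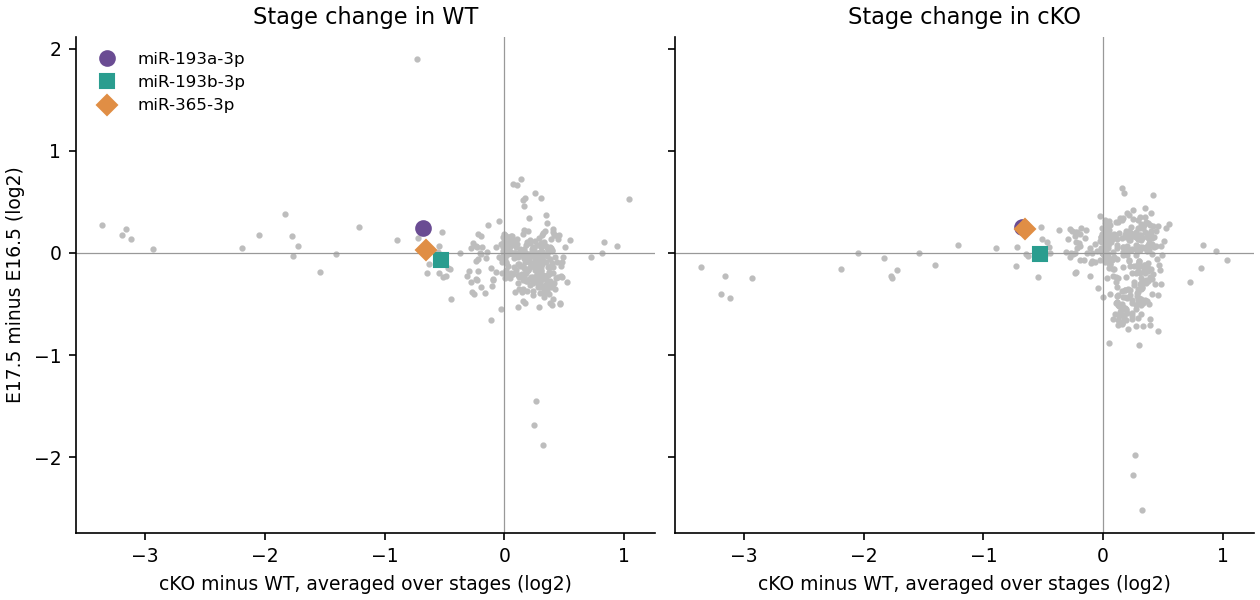
Change with stage (E17.5 minus E16.5, log2) in wild type on the left and in cKO on the right against the change between genotypes (log2) for the 385 tested miRNAs (grey), with the 3 members marked. miR-193a-3p lies above 0 with stage in both panels, miR-365-3p in the right panel, and miR-193b-3p lies near 0 in both.

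The difference between the genotypes was then compared across stages. None of the 3 members passed by limma (0 of 3, where 1.56% of all tested did). At an unadjusted p under 0.05, 1 of the 3 did, miR-365-3p, as did 27.8% of all tested. Its difference of −0.76 at E16.5 and −0.55 at E17.5 changed by 0.20 ± 0.0607 (limma adjusted p = 0.116). The changes were 0.01 ± 0.0472 for miR-193a-3p and 0.06 ± 0.0569 for miR-193b-3p (limma adjusted p = 0.840 and 0.527). On the control probes the change for miR-193a-3p was −0.31 and passed (limma adjusted p = 0.0485), and its sign was also negative with no scaling, all probes, median scaling, normexp and total gene signal.

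Levels in the 4 groups can be ordered for each miRNA by itself. miR-193a-3p was highest in wild type at E17.5, then wild type at E16.5, cKO at E17.5 and cKO at E16.5, and no neighbours overlapped. miR-365-3p had the same order of means, but its wild-type groups overlapped. For miR-193b-3p the cKO stages overlapped, and the wild-type stages lay apart by only 0.02 (−0.65 against −0.68 for the nearest arrays) and did not pass the test given above. The shares of all tested miRNAs without such overlap are not given here, and the genotype contrast chose the members. Nothing is therefore read from overlap or its lack.

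A ratio of 2 members taken within an array does not depend on a single scale factor for that array. Quantile scaling can change it and was not run for the ratios. The level of one probe cannot be read against another. Ratios were therefore centred on their mean over the 8 arrays, and only their shift with stage was tested, by a two-sided exact permutation test of 4 against 4 arrays. This allows 70 arrangements and a smallest p of 0.0286. After adjustment over the 3 ratios, a ratio at that p passes only if another ratio is at it too. Stage was shuffled over all 8 arrays without regard to genotype. Yet cKO minus wild type was −0.15 for miR-193a-3p over miR-193b-3p, 0.13 for miR-193b-3p over miR-365-3p and −0.02 for miR-193a-3p over miR-365-3p. The p-values therefore take no account of genotype, and a test with stage shuffled within genotype was not run. The test was chosen after the values had been seen.

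The ratio of miR-193a-3p to miR-193b-3p, which share a seed, was higher at E17.5. At E16.5 its centred log2 value was −0.14 and −0.02 for wild type and −0.24 and −0.18 for cKO. At E17.5 it was 0.22 and 0.24 for wild type and 0.07 and 0.04 for cKO. All 4 later arrays lay above all 4 earlier ones. The shift was 0.29, or 1.22-fold (exact permutation p = 0.0286, 0.0429 after adjustment over 3 ratios), with 0.31 in wild type and 0.27 in cKO. It was 0.25 with the shorter probes. The call was lost without any 1 of the 4 E17.5 arrays, with shifts of 0.26 to 0.32 and adjusted exact permutation p from 0.0857 to 0.114. Without either cKO array of E17.5, its exact permutation p before adjustment stayed at 0.0286, the smallest possible. There the call was lost because no other ratio was at that p.

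The ratio of miR-193b-3p to miR-365-3p was lower at E17.5. At E16.5 it stood at 0.00375 and −0.03 for wild type and at 0.17 and 0.20 for cKO. At E17.5 it stood at −0.07 and −0.16 for wild type and at −0.08 and −0.03 for cKO. The stages touched, with the highest later and the lowest earlier array both at −0.03. The shift was −0.17 (exact permutation p = 0.0286, adjusted 0.0429), with −0.10 in wild type and −0.24 in cKO. This call too was lost without any 1 of the E17.5 arrays (adjusted exact permutation p from 0.0857 to 0.114). The ratio of miR-193a-3p to miR-365-3p shifted by 0.12 and did not pass (exact permutation p = 0.0857, adjusted 0.0857). With normexp background correction none of the 3 ratios passed, each with an adjusted exact permutation p of 0.0857. Before adjustment, miR-193a-3p over miR-193b-3p kept the smallest possible p of 0.0286 there. Its call was lost because no other ratio was at that p.

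**Figure D5:**
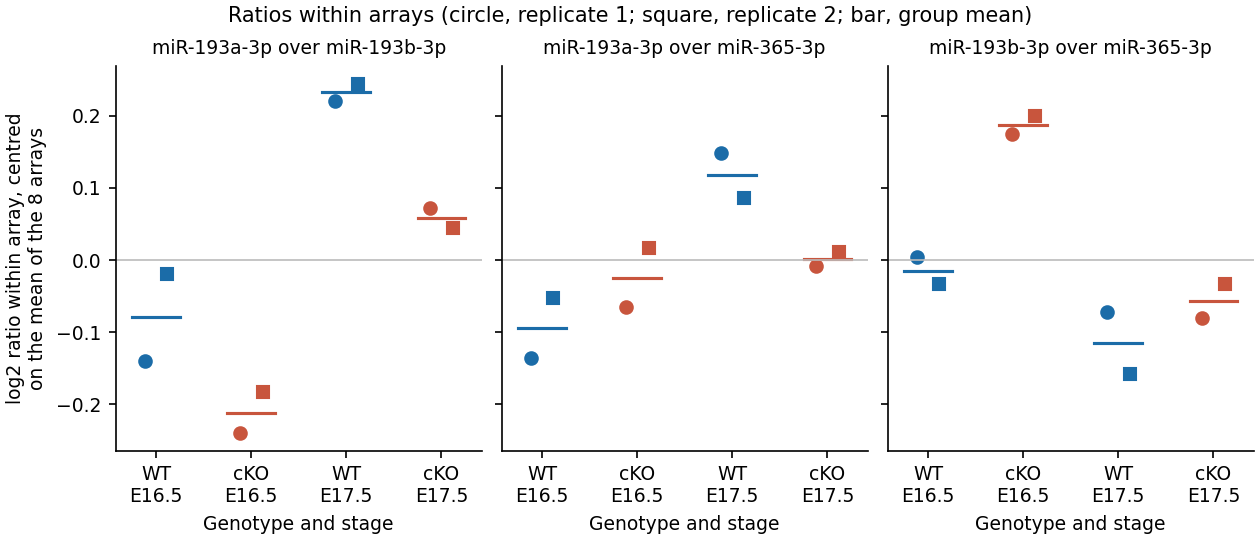
Log2 ratio of 2 miRNAs within an array, centred on the mean of the 8 arrays (vertical axis), by genotype and stage; points are arrays and bars are means of 2. For miR-193a-3p over miR-193b-3p all 4 E17.5 arrays (0.04 to 0.24) lie above all 4 E16.5 arrays (−0.24 to −0.02).

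Over the 8 arrays, the Pearson r of log2 scaled values was 0.974 between miR-193a-3p and miR-365-3p, 0.954 between miR-193b-3p and miR-365-3p and 0.901 between miR-193a-3p and miR-193b-3p. These points share their arrays, their scaling and the splits between genotypes and between stages, and r reflects all of these. Among the other 258 miRNAs detected on all 8 arrays, the 3 with the pattern most like miR-193a-3p were miR-27a-3p (r = 0.992), miR-196a-5p (r = 0.969) and miR-210-3p (r = 0.955). The same 3 names came out for miR-365-3p, with miR-210-3p at 0.973, miR-196a-5p at 0.971 and miR-27a-3p at 0.964. For miR-193b-3p they were miR-106b-5p (r = 0.997), miR-20a-5p (r = 0.994) and miR-182-5p (r = 0.992).

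Of the 3 miRNAs most like miR-193a-3p, 1 also rose with stage in cKO and 0 passed in wild type. Of all tested miRNAs 15.3% rose in cKO and 14.8% passed in wild type. The miRNAs named in this paragraph were picked by r with a member over the same arrays of both stages. The members' own change with stage therefore shaped the choice. Their stage values and p-values are given as a description, and nothing is read from the count. miR-27a-3p, which regulates fat cell formation, rose by 0.25 in cKO (limma adjusted p = 0.0262) and differed by 0.21 in wild type (limma adjusted p = 0.0674). miR-196a-5p differed by 0.15 in wild type and 0.06 in cKO and passed in neither (limma adjusted p = 0.0806 and 0.353). miR-210-3p, known as a target of the hypoxia response, differed by 0.13 and 0.05 in wild type and cKO and passed in neither (limma adjusted p = 0.353 and 0.662). miR-106b-5p and miR-20a-5p, members of the miR-17 family of cell cycle regulators, differed with stage by −0.10 and 0.01 in wild type and by −0.03 and −0.02 in cKO, and passed in neither. miR-182-5p differed by −0.03 in wild type and −0.24 in cKO and passed in neither (limma adjusted p = 0.996 and 0.215).

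Since the Mir193b and Mir365-1 pair is best known from brown fat, 15 other miRNAs described in brown fat cells were listed, and 13 of them could be tested. Between genotypes, as scaled here, 5 fell, 3 rose and the median was −0.00157, against 60.5% of all tested passing in either direction. Those that fell were miR-203-3p (−3.19), miR-182-5p (−1.76), miR-34a-5p (−1.72), miR-196a-5p (−0.72) and miR-27b-3p (−0.14), and the first and second of these also stand on the skin epithelium list. Those that rose were miR-455-3p (0.38) and the muscle miRNAs miR-133a-3p (0.29) and miR-133b-3p (0.24). Without scaling the rises came to 0.08, −0.02 and −0.07 and no longer passed, and on the control probes miR-133a-3p and miR-133b-3p fell. The difference of miR-27b-3p grew to −0.45 without scaling, where its call was lost (limma adjusted p = 0.103), and to −0.63 on the control probes, where it passed. Of the 13, without scaling 4 fell, 0 rose and the median was −0.31. On the control probes 11 fell, 0 rose and the median was −0.49. The median of all tested miRNAs under these scalings was −0.08 and −0.25. The shares of all tested miRNAs that fell under them are not given here. Nothing about the brown fat list is therefore read from its counts under these scalings. With stage, 0 of 13 passed by limma in wild type (2 at an unadjusted p under 0.05, miR-133a-3p and miR-196a-5p), against 14.8% of all tested adjusted and 35.8% unadjusted. In cKO 5 rose and 0 fell, where 15.3% of all tested rose and 20.3% fell, miR-27b-3p among them at 0.23 (limma adjusted p = 0.0257).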

How the data were processed

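Mouse miRNA arrays (8 arrays, 1 colour, Cy3) were read from the deposited scanner files. Per the file headers, the authors extracted them with Agilent Feature Extraction 11.5.1.1 into background-subtracted intensity values in linear units, with no scaling between arrays. Outlier spots were left out (2.84% to 6.02% of spots per array) and 0 spots were saturated. Spots of a probe were averaged and divided by the array's 75th percentile over 474 probes. A probe counted as detected where over 50% of its spots stood well above background. Values under a floor of −4.24 (log2, from the 5th percentile of detected probes) were raised to it. limma 3.58.1 in R 4.3.3 (eBayes with a trend, 4 residual and 1.08 prior degrees of freedom) was fitted with 4 group means over 385 miRNAs, with Benjamini-Hochberg adjustment at 0.05 within each comparison. The model was tested on simulated data. Sequences came from RefSeq, and figures from matplotlib. Arrays detected 279 to 384 miRNAs each, and their number limits the precision.

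The members, lists and naming rule were chosen with earlier results of these data known. miRNAs named are the members, the other arms of their hairpins, the listed brown fat miRNAs, the 3 most alike to each member and up to 3 of each marker list. Outside this rule, miR-205-3p was named as the unlisted arm of a marker hairpin. Alternatives were 5 other scalings, another background correction, the deposited value table, other filters, floors, probes and models, and each array left out. Total gene signal, the dimmest probe, kept outlier spots and the ratio test were added after seeing the data.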

Additional observations from a re-analysis of the deposited data

How the results depend on the processing

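The members' median change between genotypes was −0.65 averaged, −0.69 at E16.5 and −0.55 at E17.5. It stayed below 0 under all alternatives run, which the rule of choice fixes in part. In that order it was −0.96, −0.91 and −0.94 with no scaling, −0.93, −0.91 and −0.88 with all probes in the percentile, −1.14, −1.01 and −1.20 on control probes and −0.47, −0.46 and −0.41 with normexp. Median scaling gave −0.73 averaged and −0.69 at E17.5, and the total gene signal −0.61 at both stages. Leaving out each array gave −0.68 to −0.63, −0.71 to −0.66 and −0.60 to −0.50.

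Of the 3 members, 1 passed with stage in wild type. This was 0 with all probes in the percentile, quantile scaling, total gene signal, the dimmest probe or the compared groups alone, 2 with no scaling and 3 on control probes. In cKO 2 passed, against 0 with no scaling, all probes, normexp or total gene signal and 1 with the dimmest probe. Averaged, 2 passed, against 1 with all probes, normexp, total gene signal or the dimmest probe and 3 with no scaling or on control probes. Leaving out each array gave 0 to 1, 1 to 2 and 1 to 2. The difference of the cKO effect between stages had 0 passes, and 1 on control probes (miR-193a-3p, −0.31, limma adjusted p = 0.0485). The shares of all tested miRNAs that passed are given above as scaled here only, so the counts under other settings have no background beside them. In wild type the median of all tested miRNAs was −0.04 as scaled here, 0.47 with no scaling and 0.30 on control probes. The cause of these moves was not tested.

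The stage change of miR-193b-3p turned positive in wild type with no scaling (0.54), all probes (0.30), median scaling (0.042) and control probes (0.34). In cKO it did so with no scaling (0.43), all probes (0.26), quantile scaling (0.051) and control probes (0.075), and averaged with no scaling (0.48), all probes (0.28), median scaling (0.00801) and control probes (0.21). Leaving out arrays gave −0.046 to 0.018 in cKO. That of miR-365-3p in wild type was −0.013 with normexp and −0.020 to 0.080 with arrays left out. The difference of the cKO effect turned negative for miR-193a-3p with no scaling (−0.15), all probes (−0.085), median scaling (−0.11), control probes (−0.31), normexp (−0.055) and total gene signal (−0.11), and ran from −0.00959 to 0.039 with arrays left out. For miR-193b-3p it was −0.11, −0.043, −0.068, −0.27 and −0.074 with no scaling, all probes, median scaling, control probes and total gene signal, and for miR-365-3p −0.12 on control probes. Apart from miR-193a-3p there, and from miR-193b-3p in wild type on control probes and averaged with no scaling or on control probes, none of these turned values passed the test.

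The ratio shifts kept their direction: normexp gave 0.22 for miR-193a-3p over miR-193b-3p and −0.12 for miR-193b-3p over miR-365-3p, no longer past the threshold. Before adjustment, miR-193a-3p over miR-193b-3p kept an exact permutation p of 0.0286 with normexp, the smallest possible. Leaving out each array gave 0.26 to 0.33 and −0.21 to −0.13, and both calls were lost without any 1 of the 4 E17.5 arrays, with adjusted exact permutation p from 0.0857 to 0.114 over 35 arrangements. For miR-193a-3p over miR-193b-3p without either cKO E17.5 array, the exact permutation p before adjustment stayed at 0.0286, the smallest possible.

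Same-numbered arrays share a slide row but showed no clear pairing (correlations of deviations −0.14 to 0.28). With the replicate number as a block, 1, 2, 2 and 0 members passed in wild type, in cKO, averaged and in the difference between stages, as without it. With no filter on dim miRNAs, those at the floor on all arrays could not be fitted and were left out.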
